A study of Mus musculus with 2 samples.

Results

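The genes that write, copy and remove 5-methylcytosine were examined in RNA from E14 cells, a line of mouse embryonic stem cells (mESCs) grown without feeder cells on gelatin in serum medium with LIF, the cytokine that maintains self-renewal. The members were the rows of the deposited expression files whose symbol was Dnmt1, Uhrf1, Uhrf2, Dnmt3a, Dnmt3b, Dnmt3l, Tet1, Tet2, Tet3 or Tdg. All 10 were found once among 23889 gene symbols. A single library came from cells transfected with a control shRNA (genotype label Normal) and another from cells transfected with an shRNA against USP21, a deubiquitinase that acts on Nanog and on histone H2A, and both were harvested after 3 days of knockdown. The labels do not name the USP21 shRNA used. With 1 library per group there is no replicate check on any difference, and no test was made. In bulk RNA, fewer cells of a type and less RNA per cell cannot be told apart.

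Methylation of cytosine in CpG dinucleotides is copied to the new DNA strand after replication by Dnmt1, which is guided to hemimethylated sites by Uhrf1. New methylation is laid down by the catalytic enzymes Dnmt3a and Dnmt3b, and Dnmt3l, which has no catalytic activity of its own, binds and stimulates them. The Tet dioxygenases oxidize 5-methylcytosine stepwise, and Tdg excises the most oxidized forms so that repair can restore an unmethylated cytosine. mESCs in serum carry high methylation, and expression of Dnmt3l is typical of early embryonic and germ cells.

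The clearest differences lay in the de novo group. Dnmt3l had the largest ratio of the 10 members and Dnmt3a the next largest, whereas Dnmt3b, the other catalytic de novo enzyme, was nearly level between the libraries. Windows upstream of RefSeq starts of these 3 genes are shown because the genes differed in their ratio and also in their content of CpG, the dinucleotide at which methylation is laid down. A second Dnmt3a start (window chr12:3806910-3807159), which overlaps the first window, is counted but not printed. The windows cover the 250 bases before a start, are taken from RefSeq (GRCm38.p6), and all lie on the plus strand, with each CG in capitals. All 10 members had such a window.

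Dnmt3l, first start, chr10:78042037-78042286: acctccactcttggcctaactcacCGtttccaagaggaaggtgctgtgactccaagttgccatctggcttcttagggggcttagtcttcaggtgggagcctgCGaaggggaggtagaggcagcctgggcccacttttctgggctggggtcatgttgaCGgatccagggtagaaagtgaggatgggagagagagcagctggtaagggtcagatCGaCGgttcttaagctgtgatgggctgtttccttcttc
Dnmt3l, second start, chr10:78049592-78049841: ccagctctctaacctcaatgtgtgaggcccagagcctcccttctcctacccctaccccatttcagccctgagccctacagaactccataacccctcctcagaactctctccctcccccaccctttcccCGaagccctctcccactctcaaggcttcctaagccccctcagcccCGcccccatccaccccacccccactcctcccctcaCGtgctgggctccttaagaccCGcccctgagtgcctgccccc
Dnmt3l, last start, chr10:78055085-78055334: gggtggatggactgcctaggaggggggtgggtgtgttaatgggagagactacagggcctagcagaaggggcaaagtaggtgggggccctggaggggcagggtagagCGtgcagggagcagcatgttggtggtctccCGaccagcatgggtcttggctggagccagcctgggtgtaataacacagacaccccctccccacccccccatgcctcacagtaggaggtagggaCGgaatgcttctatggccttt
Dnmt3a, first start, chr12:3806730-3806979: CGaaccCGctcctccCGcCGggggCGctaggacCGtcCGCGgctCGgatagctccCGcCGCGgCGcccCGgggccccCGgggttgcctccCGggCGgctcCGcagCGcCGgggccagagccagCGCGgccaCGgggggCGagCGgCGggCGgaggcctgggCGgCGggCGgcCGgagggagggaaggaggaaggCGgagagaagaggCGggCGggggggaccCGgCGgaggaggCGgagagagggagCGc
Dnmt3a, internal start, chr12:3891494-3891743: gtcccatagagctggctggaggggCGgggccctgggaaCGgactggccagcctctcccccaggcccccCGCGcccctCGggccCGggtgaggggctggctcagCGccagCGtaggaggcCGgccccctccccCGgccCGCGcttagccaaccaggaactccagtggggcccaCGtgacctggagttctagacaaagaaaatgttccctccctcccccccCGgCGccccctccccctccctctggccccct
Dnmt3b, start, chr2:153649199-153649448: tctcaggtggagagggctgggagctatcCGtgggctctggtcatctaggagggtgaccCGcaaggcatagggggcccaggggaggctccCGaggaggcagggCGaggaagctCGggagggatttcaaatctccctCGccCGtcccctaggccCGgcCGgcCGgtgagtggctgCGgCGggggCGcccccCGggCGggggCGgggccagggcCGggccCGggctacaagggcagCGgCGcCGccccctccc

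The letters CG, which read the same on both strands, occurred 5, 4 and 3 times in the windows of Dnmt3l. They occurred 38 times before the first start of Dnmt3a, 40 times before the second, 15 times before its internal start and 21 times in the window of Dnmt3b. Over 32851 windows of the same length the median was 6, and 92.1% held at least 1 CG. At least as many as in the first Dnmt3l window were found in 55.6% of all windows, against 1.88% and 1.31% for the first and the second Dnmt3a window, 27.3% for the internal Dnmt3a window and 16.3% for the Dnmt3b window. All 3 windows of Dnmt3l thus held fewer CG than the median window. The windows of the other members ranged from 2 CG, at one of 3 Dnmt1 starts, to 51 at Tet2, so a low count was not particular to Dnmt3l. FPKM is summed over the transcripts of a gene, so it does not tell which start was used. The first Dnmt3l window lies inside the annotated spans of both Aire and Dnmt3l and overlaps an annotated exon of Aire by 75 bases. The second and the last lie in introns of Dnmt3l. The internal Dnmt3a window is intronic except for 16 bases of an annotated exon.

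The values are FPKM, fragments scaled to kilobases of transcript and to the mapped fragments of the library, so that levels can be compared between genes. FPKM summed to 613617 in the control library and 543206 in the other, and steps between low values gave the control library about 1.24 times as many fragments. Differences are given as log2((FPKM USP21 shRNA + 0.1)/(FPKM control shRNA + 0.1)), called the log2 ratio, and folds are on the same scale. An FPKM of 1 or more in either library was reached by 11927 genes, and their median log2 ratio was 0.0031. All 10 members were among them. Past 1.5-fold, 2 of 10 members were higher with USP21 shRNA, while 7.77% of all these genes were. None of the 10 was lower past this fold, against 6.46% of all genes. Of all genes past 1.5-fold 54.6% were higher, and this share was 78.0% once both libraries were scaled to equal sums (TPM), which raised the median log2 ratio of all genes by 0.17. Past 2-fold, 1 member was higher and none lower, against 2.30% and 2.03% of all genes. The median log2 ratio of the members was 0.085, with 7 above 0 and 3 below. In falling order of level the control library had Uhrf1, Dnmt1, Dnmt3l, Tdg, Tet2, Dnmt3b, Tet1, Dnmt3a, Uhrf2 and Tet3. The USP21 shRNA library had Dnmt3l, Uhrf1, Dnmt1, Dnmt3a, Tet1, Tdg, Dnmt3b, Tet2, Uhrf2 and Tet3. Without replicates there is no spread to separate neighbours in these orders.

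**Figure D1:**
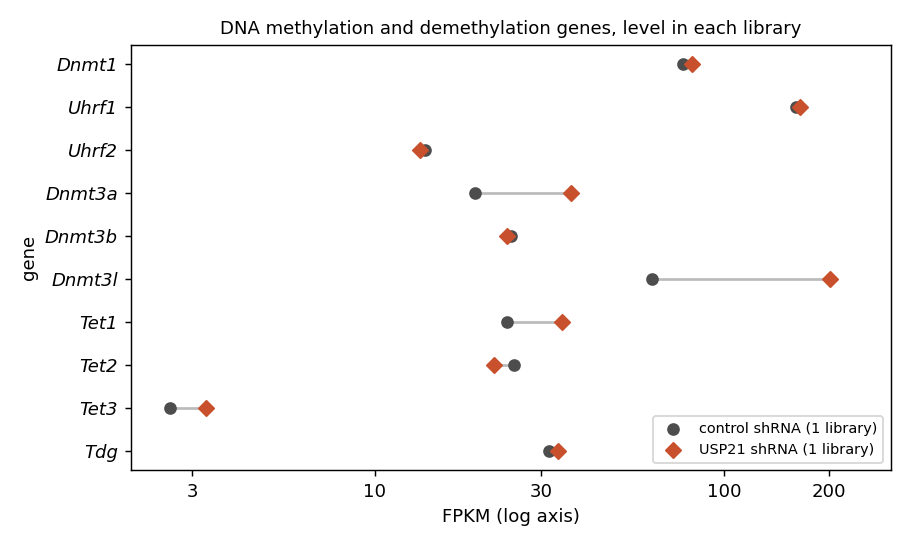
FPKM of the 10 members (log axis) in the control shRNA library (grey circles) and the USP21 shRNA library (orange diamonds), 1 library per group and hence no error bars. Dnmt3l moved from 62.1 to 201.0 and Dnmt3a from 19.4 to 36.5, while the pairs of Dnmt1, Uhrf1, Uhrf2, Dnmt3b and Tdg nearly coincide.

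Dnmt3l (chromosome 10, 78041947 to 78063622 in GRCm38, plus strand) had an FPKM of 62.1 with control shRNA and 201.0 with USP21 shRNA. The value with USP21 shRNA was 3.23-fold the control value, a log2 ratio of 1.69. Of the 11927 genes, 48 had a higher log2 ratio. Its place among all symbols moved from rank 1507 to rank 364, and it became the most abundant of the members, above Uhrf1. Its transcript shared no word of 31 bases with any other annotated gene, unlike those of Tdg, Uhrf1 and Dnmt3b.

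Dnmt3a (chromosome 12, 3806007 to 3914443, plus strand) had an FPKM of 19.4 with control shRNA and 36.5 with USP21 shRNA. This is a 1.88-fold higher value, or a log2 ratio of 0.91, and 351 of the 11927 genes had a higher one. Its rank among all symbols rose from 4305 to 2538. The gene is known for a long product and for a shorter one from an internal promoter that prevails in mESCs, which the summed values do not separate. An antisense gene, Dnmt3aos, was listed at 0 with control shRNA and at 0.027 with USP21 shRNA.

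Dnmt3b (chromosome 2, 153649450 to 153687730, plus strand) had an FPKM of 24.5 with control shRNA and 23.9 with USP21 shRNA, a log2 ratio of -0.037. This put it near the middle of all genes, with 44.8% of them at a lower ratio, and with equal sums the value was 0.14. Of its 31-base words 15.5% also occur in Dnmt3c, a close relative whose symbol is not used here, and how such reads were assigned is not stated.

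Ratios between genes of the same library do not depend on how the libraries were scaled. Dnmt3a stood at 0.79 times Dnmt3b with control shRNA and at 1.53 times Dnmt3b with USP21 shRNA, so the order of the catalytic de novo enzymes was inverted. Dnmt3l stood at 1.41 times the sum of Dnmt3a and Dnmt3b in the control library and at 3.33 times this sum in the other. Of the summed FPKM of the 3 Dnmt3 genes, 58.6% came from Dnmt3l with control shRNA and 76.9% with USP21 shRNA. The share of Dnmt3b went from 23.1% to 9.14%, and that of Dnmt3a from 18.3% to 13.9% although its own level was higher. The sum itself was 106.0 with control shRNA and 261.4 with USP21 shRNA.

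**Figure D2:**
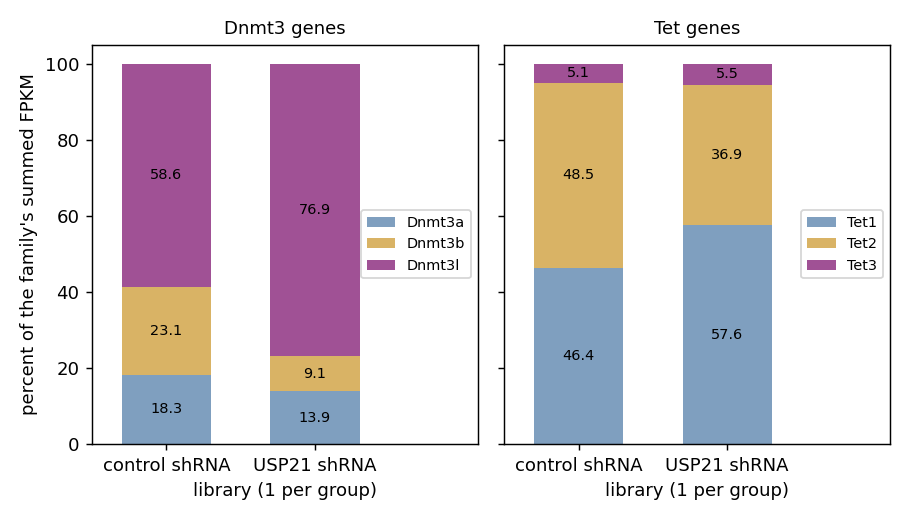
Percent of the summed FPKM of the 3 Dnmt3 genes (left) and the 3 Tet genes (right) that each gene contributed in the control shRNA and the USP21 shRNA library, 1 library per bar. Dnmt3l took 58.6% of the Dnmt3 sum with control shRNA and 76.9% with USP21 shRNA, and Tet1 took 46.4% and 57.6% of the Tet sum.

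The maintenance genes were close between the libraries. Uhrf1 (chromosome 17, 56303321 to 56323486, plus strand), the reader of hemimethylated CpG, had an FPKM of 160.6 with control shRNA and 165.0 with USP21 shRNA, a log2 ratio of 0.039. It was the most abundant member in the control library. Dnmt1 (chromosome 9, 20907209 to 20959888, minus strand) had 76.5 and 80.9, a log2 ratio of 0.080, which was -0.038 with the trend on transcript length removed. The ratio of Uhrf1 to Dnmt1 was 2.1 in the control library and 2.0 in the other.

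Uhrf2 (chromosome 19, 30030513 to 30093722, plus strand), a relative of Uhrf1 that binds oxidized methylcytosine, had an FPKM of 13.9 with control shRNA and 13.4 with USP21 shRNA, a log2 ratio of -0.049, which was 0.13 with equal sums. Uhrf1 was 11.6 times as abundant as Uhrf2 in the control library and 12.3 times in the other. Of the words of Uhrf1 29.4% also occur elsewhere, mostly in the gene Gm5648, which is not used here, so its level is less certain than that of Uhrf2, whose words are all its own.

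Dnmt1 and Uhrf1 are known to be transcribed mainly in dividing cells. Of 15 genes of S phase 1 was higher and 1 lower past 1.5-fold, close to the 7.77% and 6.46% of all genes. Their median log2 ratio was -0.061. The most abundant was the replicative helicase subunit Mcm7 (241.3 with control shRNA, 243.9 with USP21 shRNA). The higher one was Rrm2, a subunit of ribonucleotide reductase (109.97 and 172.9), and the lower one Ccne2, a cyclin (6.86 and 3.996). The maintenance genes and most of these S phase genes thus differed by less than 1.5-fold between the libraries, as did most of all genes.

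**Figure D3:**
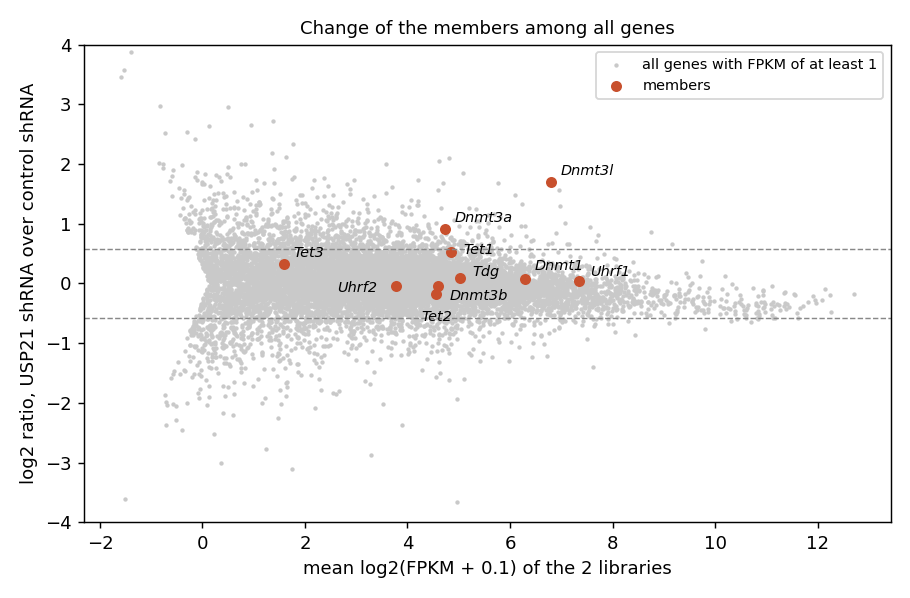
Log2 ratio of USP21 shRNA over control shRNA (vertical) against the mean log2(FPKM + 0.1) of the 2 libraries (horizontal) for 11927 genes (grey) and the 10 members (orange), with dashed lines at 1.5-fold; 4 genes lie outside the vertical range. Dnmt3l at 1.69 and Dnmt3a at 0.91 lie above the upper line, and Tet1 at 0.52 lies just under it.

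Among the Tet genes, Tet1 (chromosome 10, 62804570 to 62908996, minus strand), with Tet2 the principal Tet enzyme of mESCs, had an FPKM of 23.9 with control shRNA and 34.3 with USP21 shRNA. The log2 ratio was 0.52, or 1.44-fold, just short of 1.5-fold, and 90.5% of the 11927 genes had a lower one. With equal sums it was 0.70, past 1.5-fold, but relative to a median of all genes that had risen to 0.18. Tet2 (chromosome 3, 133463679 to 133545139, minus strand) had 24.98 with control shRNA and 22.0 with USP21 shRNA, a log2 ratio of -0.18, the lowest of the members. Tet1 was thus slightly below Tet2 in the control library, at 0.96 times its level, and above it in the other, at 1.56 times.

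Tet3 (chromosome 6, 83362373 to 83459084, minus strand), known mainly from the oocyte and zygote and from differentiated tissue, was the least abundant member in both libraries. It had an FPKM of 2.60 with control shRNA and 3.28 with USP21 shRNA, a log2 ratio of 0.32. It made up 5.05% of the Tet sum in the control library and 5.50% in the other.

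Tdg (chromosome 10, 82629828 to 82650799, plus strand), the glycosylase that completes active demethylation, had an FPKM of 31.5 with control shRNA and 33.5 with USP21 shRNA, a log2 ratio of 0.089. This is the least certain level of the set, since 75.7% of its 31-base words occur in other genes. Of all its words 58.6% occur in the copy Tdg-ps. Summed with Gm9855, a copy with 28.0% of its words that is in the files (14.1 and 17.3), the log2 ratio was 0.16.

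The lengths of the transcripts bear on these ratios. Across the 95.4% of the 11927 genes that had a transcript length, the log2 ratio went up with this length. Spearman's rho was 0.32 over genes, which are no replicates, and the median log2 ratio was 0.17 among the genes with the longest transcripts, of 4801 bases or more, against -0.16 among those with the shortest, of 1628 bases or fewer. Tet1 (14369 bases), Dnmt3a (9685), Tet2 (9021), Tet3 (5944) and Dnmt1 (5367) fall among the longest, while Dnmt3l has 1822 bases. With the trend on length removed, the log2 ratio of Dnmt3l was 1.76, that of Dnmt3a 0.64, that of Tet1 0.15 and that of Tet2 -0.43. Dnmt3l and Dnmt3a stayed past 1.5-fold with this correction, and the value of Tet1 was the one that moved most. For Dnmt3a the correction used the transcript with the longest coding sequence. The summed FPKM does not tell whether this or the shorter product was expressed, so its corrected value depends on that choice. The role of length in these differences was not tested.

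The neighbours of the 2 members past 1.5-fold were then compared, a choice made after their values had been seen. On either side of Dnmt3l lie Aire, an autoimmune regulator known from the thymus, and Icosl, a ligand of a T cell costimulatory receptor. Aire (78030022 to 78043610, minus strand) stood at 1.38 FPKM in the control library and at 4.64 in the other, a log2 ratio of 1.68. Icosl (78069368 to 78079525, plus strand) had 3.99 and 8.96, a log2 ratio of 1.15. All 3 adjacent genes were therefore higher with USP21 shRNA, Aire by almost the same factor as Dnmt3l.

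Beyond them the ratios were small. Pfkl, the next expressed gene on one side, had an FPKM of 94.99 and 95.2 (log2 ratio 0.0030), and Pwp2, the next on the other, had 28.9 and 27.9 (log2 ratio -0.046). Within 500 kb of the Dnmt3l start, 14 genes had FPKM of at least 1, and the log2 ratios of the 11 besides Dnmt3l, Aire and Icosl ranged from -0.35 to 0.27. In their annotation Aire and Dnmt3l run in opposite directions and overlap by 1.32 kb, and Icosl begins 5.74 kb past the end of Dnmt3l. Aire stood at 2.22% of the Dnmt3l level in the control library and at 2.31% in the other, and Icosl at 6.43% and 4.46%. No annotated exon of Dnmt3l overlapped an exon of another gene on either strand, so the overlap with Aire is one of gene spans. The strandedness of the libraries is not stated, and Icosl lies on the same strand as Dnmt3l. Whether reads from 1 of these genes were counted for another was not tested. On one side of Dnmt3a, Dtnb had an FPKM of 12.29 and 12.25 (log2 ratio -0.0047), and on the other Pomc, a hormone precursor, had 1.34 and 1.76 (log2 ratio 0.37).

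**Figure D4:**
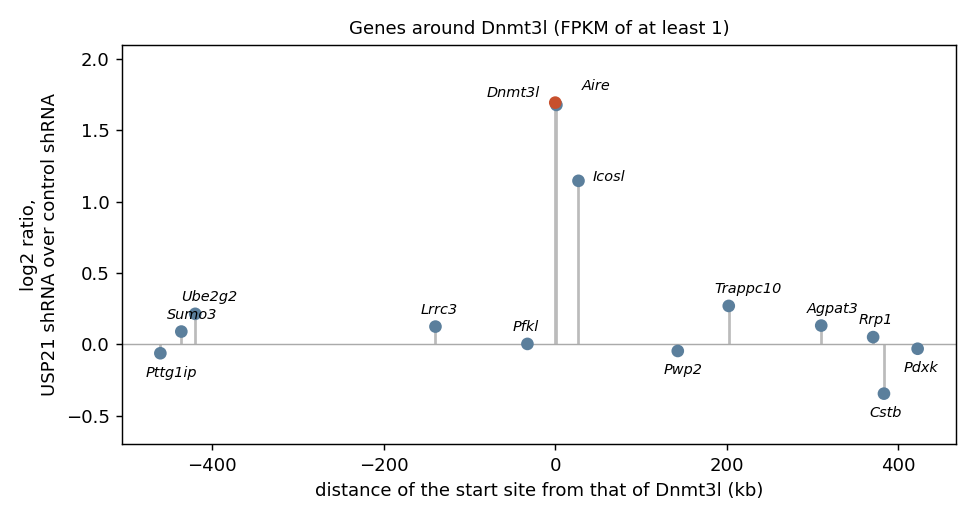
Log2 ratio of USP21 shRNA over control shRNA for the 14 genes with FPKM of at least 1 within 500 kb of Dnmt3l, against the distance of each start site from the first RefSeq start of Dnmt3l in kb. Dnmt3l (1.69), Aire (1.68) and Icosl (1.15) stand above the other 11 genes, which lie between -0.35 and 0.27.

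Other genes of the pathway were taken from lists of known partners. Among proteins that steer the methyltransferases to DNA or limit their expression, 18 genes had FPKM of at least 1. None of them was higher and 1 was lower past 1.5-fold, against 7.77% and 6.46% of all genes. Their median log2 ratio was -0.072. The lower one was Prdm14, a transcription factor known to repress the de novo methyltransferase genes in mESCs, with an FPKM of 12.6 with control shRNA and 6.46 with USP21 shRNA (log2 ratio -0.95). Trim28, the co-repressor that keeps imprints methylated with Zfp57, was the most abundant at 682.2 and 590.8 (log2 ratio -0.21). Nsd1, which places the histone mark read by Dnmt3a, had the highest ratio, with 21.7 and 30.8 (log2 ratio 0.51). Dppa3, which protects DNA from methylation by displacing Uhrf1, was under the FPKM filter at 0.865 and 0.855.

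The readers of methylated CpG with their relatives, and the enzymes downstream of Tdg, are set against 7.77% of all genes higher and 6.46% lower past 1.5-fold. Of 7 readers and relatives with FPKM of at least 1 none passed 1.5-fold in either direction, and their median log2 ratio was 0.14. Mbd3, a relative of the readers and a subunit of the NuRD complex, was the most abundant of the 7, with 54.99 and 60.5. Zbtb38 had the highest log2 ratio, 0.46, and Mbd4, a glycosylase, the lowest, -0.18. Of 20 genes of base excision, repair and cytosine deamination 1 was higher and 1 lower, with a median of -0.084. Gadd45b, a stress-induced gene proposed to assist demethylation, had an FPKM of 6.81 and 10.6 (log2 ratio 0.63). Apobec2, a member of the cytosine deaminase family, had 23.1 and 11.6 (log2 ratio -0.99). Parp1, a sensor of strand breaks, was the most abundant at 182.5 and 186.7.

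None of 14 genes that supply or consume the cofactors of these enzymes passed 1.5-fold, and their median log2 ratio was 0.076. Ahcy, which clears the product inhibitor of methyltransferases, was the most abundant with 208.8 and 193.1. D2hgdh, which removes an inhibitor of Tet enzymes, had the lowest log2 ratio (-0.50). The pathway genes past 1.5-fold outside the members were thus Prdm14 and Apobec2, which were lower, and Gadd45b, which was higher. Over all genes 7.77% were higher and 6.46% lower, and none of these partner lists exceeded either share.

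**Figure D5:**
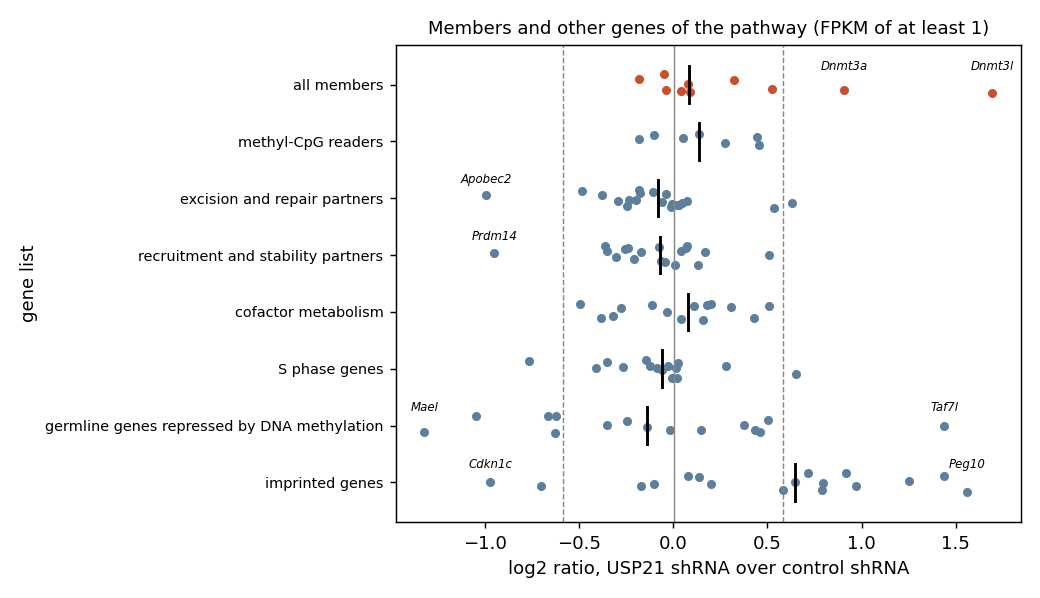
Log2 ratio of USP21 shRNA over control shRNA for each list's genes that reached FPKM 1 (points, spread vertically for legibility), with the list median (black bar), the median of all 11927 genes (grey line) and 1.5-fold (dashed lines). The members have a median of 0.085 with Dnmt3l and Dnmt3a apart from the rest, and the imprinted genes have the highest median, 0.65.

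Genes whose expression is known to depend on DNA methylation were read beside the enzymes. Over all genes 7.77% were higher and 6.46% lower past 1.5-fold. Of 15 germline genes that methylation represses, 1 was higher and 5 were lower, with a median log2 ratio of -0.14. Mael, of the piRNA pathway, had an FPKM of 38.9 and 15.5 (log2 ratio -1.32), and Taf7l, a germline TFIID subunit, had 2.77 and 7.69 (1.44). Of 17 imprinted genes 9 were higher and 2 lower, with a median of 0.65. Peg10, a gene derived from a retrotransposon, had 72.0 and 212.9 (log2 ratio 1.56), and Cdkn1c, a cell cycle inhibitor, had 26.1 and 13.3 (-0.97). Among the higher genes, Peg10 is known to be expressed from the paternal allele and Meg3 (log2 ratio 0.97) from the maternal one. The other higher genes were Plagl1 (1.44), Nnat (1.25), Peg3 (0.92), Rian (0.79), Mirg (0.79), Snrpn (0.72) and Igf2 (0.65). The other lower gene was Phlda2 (-0.70). The genes were not counted by parental origin. Methylation itself was not measured in these files, so whether these genes moved with the enzymes' activity was not tested.

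The cell type and the knockdown were checked in the same values. Usp21 had an FPKM of 26.2 with control shRNA and 3.49 with USP21 shRNA. Of 12 mESC markers all were at FPKM of at least 1, and their summed FPKM was 4574 with control shRNA and 3570 with USP21 shRNA. Past 1.5-fold none of them was higher and 2 were lower, against 7.77% and 6.46% of all genes. Their median log2 ratio was -0.18. Dppa5a was the most abundant (1849 and 1285) and Fgf4 had the highest log2 ratio, 0.43. The lower ones were Nanog (467.1 and 257.7) and Tfcp2l1 (58.98 and 30.2), a factor of naive pluripotency. Otx2, which marks the exit from that state, had 4.42 and 8.78. Of 5 primed epiblast markers 4 were at FPKM of at least 1. Otx2 was the only one of these past 1.5-fold, with none lower, a median of 0.32 and Sox3 at the lowest ratio, 0.020. The marker under the filter was Fgf5, at 0.0999 and 0.0517.

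Markers of other cell types stayed low in sum. Summed FPKM was 50.2 and 44.0 over 7 primitive endoderm markers, 3.25 and 4.28 over 6 mesoderm markers, 47.1 and 31.9 over 5 neural markers (38.5 and 20.4 of it from Tubb3), and 12.2 and 14.9 over 5 trophoblast markers. The most abundant in each list were Dab2 (23.1 and 16.4), Eomes (1.20 and 1.40), Tubb3 and Tfap2c (8.83 and 11.4). The counts that follow stand beside 7.77% of all genes higher and 6.46% lower past 1.5-fold, and the lists are short. Past 1.5-fold, 1 of the 7 endoderm markers was higher (Pdgfra, log2 ratio 0.75) and 1 lower (Sox7, -1.20). Of 3 mesoderm markers with FPKM of at least 1, 1 was higher (Hand1, 1.42) and 1 lower (Mixl1, -0.70). Of 3 neural markers none was higher and 1, Tubb3, was lower (-0.91). The other 2 neural markers had log2 ratios above 0, and the median of the 3 was 0.44. Neither trophoblast marker past the filter passed 1.5-fold. Over 7 fibroblast markers the sums were 18.3 and 6.04, nearly all of it Thy1, which was lower (log2 ratio -1.69), while Lum was listed at 0 in both libraries. The part of these shifts in the ratios of Dnmt3l and Dnmt3a was not tested.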

How the data were processed

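RNA of 2 libraries of E14 cells, 1 with control shRNA and 1 with USP21 shRNA, was sequenced. FPKM values were deposited by the authors, 1 for each symbol in a library. Their processing notes name CASAVA 1.8.2, TopHat2 2.0.14, Cufflinks 2.2.1 and the build mm9, without roles. The annotation and the strandedness are not given in the sources used here. No counts are given, so no interval or floor was computed. Low values (above 0 and under 0.1 FPKM on both sides, 1439 genes) gave the relative depth, but were too blurred by transcript length to give a number of fragments.

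Log2 ratios used a pseudocount of 0.1, which understates changes of low genes. Genes reaching FPKM 1 in either library were kept. A gene was counted as higher or lower past 1.5-fold, and no p-value was computed with 1 library per group. Transcript lengths, gene positions and 31-base words came from GENCODE M21 (GRCm38), which held 22602 of the symbols, with the transcript of longest coding sequence per gene, and 95.4% of the kept genes had a length. No coordinates were converted from mm9. Alternatives were pseudocounts of 1 and 0.01, equal sums (TPM), a median ratio of 0, a lowess correction for length (span 0.3), other FPKM filters and 2-fold. The named genes are the members and, from each list, the most abundant gene and those with the highest and lowest ratio. Dppa3, Zfp57, Fgf5, Dnmt3aos, Lum, the other imprinted genes past 1.5-fold and the genes around Dnmt3l and Dnmt3a were named after their values were seen. The lists were methyl-CpG readers, excision and repair, recruitment and stability, cofactors, S phase, germline, imprinted and cell type markers. One gene that this rule names is not reported here. Members and lists were chosen with earlier results of these data known. Scripts were tested on simulated data. Python 3.11.15, numpy 2.4.6, pandas 2.3.3, statsmodels 0.14.6 and matplotlib 3.10.9 were used.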

Additional observations from a re-analysis of the deposited data

How the results depend on the processing

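Dnmt3l and Dnmt3a were higher past 1.5-fold under each alternative scaling, pseudocount and length correction tried, with log2 ratios from 1.68 to 1.87 and from 0.64 to 1.09. Past 2-fold 1 member was higher. Rescaling to equal sums (TPM) raised the median of all genes by 0.17, brought Tet1 past 1.5-fold (log2 ratio 0.70, 3 members) and turned Uhrf2 (0.13) and Dnmt3b (0.14) above 0, and the length correction turned Dnmt1 below 0 (-0.038). The directions of Uhrf2, Dnmt3b and Dnmt1 are therefore not firm. The other 7 members kept theirs, but Tet2 came to -0.0067 with equal sums and Uhrf1 to 0.0078 with the length correction, both close to no difference. Over all genes, 927 were higher and 771 lower past 1.5-fold, 54.6% of them higher. With equal sums (TPM) these were 1681 and 474, 78.0% higher. The counts were 1557 and 1354 with FPKM of at least 0.1, 496 and 408 with at least 5, 1738 and 1514 with no filter, and 274 and 242 past 2-fold. The correction for length, added for these counts after seeing the data, gave 815 and 656. No paired analysis was possible because each group has 1 library. Culture-to-culture variation cannot be estimated, so none of the differences can be set against replicate error.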
